A study of Sus scrofa with 75 samples.

Results

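Liver was compared directly with kidney in gene-level RNA sequencing of pig organs (Sus scrofa), with the liver and the kidney library of each animal set against each other. The comparison used 16 short-read libraries, 8 of liver and 8 of kidney, out of 75 samples in the series. They were chosen by their organ label and paired by the animal code, 4 animals coded BS (BS1 to BS4) and 4 coded DSE (DSE1 to DSE4). The labels give the codes and do not say what they stand for. They name no treatment, transgene or edited allele for these animals, and describe all of them as adult males of 12 months. Heart, lung and spleen libraries of the same 8 animals were used beside them to ask what liver and kidney hold in common, and 1 long-read library per code and tissue gave a second measurement.

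Liver and kidney are both organs of polarised epithelium with a heavy metabolic load. Hepatocytes secrete most plasma proteins, make urea and bile acids, and store and release glucose. Kidney tubule cells recover filtered solutes through transporters on their brush border, secrete organic ions, and make glucose from lactate and amino acids. The enzymes and transporters of these tasks often come as families of related genes, so the question was which members both organs used at a like level and which stood in one of them. In bulk tissue, fewer cells of a type and less RNA per cell cannot be told apart.

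Levels are in TPM, a fixed-total share of each library's transcripts corrected for transcript length. Unless stated otherwise, 3 TPM values in a row are the lowest, the median and the highest of an organ's 8 libraries. A difference is liver minus kidney on the log2(TPM + 1) scale with its standard error, so that a positive value means higher in liver, and it understates the change of genes near 0. Adjusted p-values come from limma, with the animal as a block and Benjamini-Hochberg adjustment over all 14084 genes that averaged at least 1 TPM in either organ.

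The marker genes went with the organ labels. The summed level of 15 hepatocyte markers ranged over 88418 to 134271 TPM in the livers and 165 to 1250 TPM in the kidneys, the highest kidney value being that of DSE1, against 541 TPM in the next. Most of that DSE1 sum was TTR, which is itself among the 15 markers. The summed level of 14 kidney tubule markers ranged over 3.0 to 38.6 TPM in the livers and 8149 to 12495 TPM in the kidneys, and 13 of the 14 stayed below 1 TPM in every liver. Of 9 macrophage markers, 8 were higher in liver, with sums of 499 to 1277 TPM in the livers and 92.2 to 254 TPM in the kidneys. Of 12 stellate cell, fibroblast and mural cell markers, 10 were higher in kidney with TPM, 2 of them under both scalings described below, with sums of 112 to 258 TPM in the livers and 328 to 564 TPM in the kidneys. Of all genes tested, 7.70% were higher in liver and 40.2% in kidney with TPM, and 15.7% were higher in kidney under both scalings. The 2 of 12 markers are near that last share. The BS4 liver held 363 TPM of 10 heart muscle markers, against 32.4 TPM in the next liver. The Y-linked EIF1AY stood at 30.5 TPM in the liver and 74.4 TPM in the kidney of BS4, and was listed at 0 in liver and kidney of the other 7 animals, which goes against the male label. Without BS4, 1098 genes were called higher in liver and 5611 in kidney, against 1085 and 5659 with it.

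Exons of some genes named below overlap those of another annotated gene, here in parentheses where it has a symbol, so that reads may be shared between them: PLG (SLC22A3), PFKFB1 (TRO), PKM, DCXR (RAC3), ASL, ARG2 (VTI1B), GLS2 (RBMS2 and SPRYD4), BHMT2 (DMGDH), HSD17B4, ACAA1 (MYD88), ACY1 (RPL29), CYP4A24, EPHX1 (TMEM63A), FMO1, SLC10A1 (SRSF5), SLC51B (RASL12), FGFR4 (ssc-mir-7138), RBP4 (FFAR4), SLC22A7 (CRIP3), SLC5A2 (RUSF1), SLC5A10 (FAM83G), SLC38A4, SLC1A2 (CD44), SLC3A1 (PREPL), AQP2, SLC20A1, TFRC, MT1A, SLC39A5 (ANKRD52), ITIH4 (ITIH3), CFD (MED16), F8 (DKC1 and SMIM9), LEAP2 (AFF4), HNF4G, NR1I2 (GSK3B), KRT18, STAT2 (IL23A), KLHL3 (MYOT), CRYBG1 (RTN4IP1).

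A gene was called where its adjusted p was below 0.05 and its difference at least 2-fold. By that rule 1085 of 14084 genes were higher in liver (7.70%) and 5659 higher in kidney (40.2%). The split depends on the scaling. TPM values share a fixed total, the 100 most abundant genes outside the mitochondrial genome took 49.1% of it in liver and 23.0% in kidney, and the genes of the mitochondrial genome took 9.42 ± 1.43% in liver and 22.6 ± 2.53% in kidney (SD, n = 8 each). The median gene stood at -0.83, below 0 on the liver minus kidney scale. After median-ratio scaling, which sets the median gene to 0.00, 2140 genes were higher in liver and 2210 in kidney, among 13885 tested, so that the liver share of calls was 49.2% instead of 16.1%. Every one of the 1085 liver calls held under both scalings (7.70%), and 2210 of the kidney calls did (15.7%). Median-ratio scaling moved differences toward liver, so a liver call made with TPM could hardly fail it. Holding under both scalings is therefore a check of the kidney calls only. Liver calls made after median-ratio scaling alone are not given for the lists below. A call is described below as held under both scalings or as made with TPM only.

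Closeness was tested as its own property. A gene was called close where both organs averaged at least 10 TPM and the 95% interval of the difference lay between -1 and 1. With TPM 2162 genes met this (15.4%), and 1351 did so under both scalings (9.59%). No direction is given for close genes, since many changed sign between the scalings. A gene named as close below met the rule with TPM. Closeness under both scalings is given as a count per list and not gene by gene. The 8 liver and 8 kidney libraries did not overlap for 7550 genes (53.6%).

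**Figure D1:**
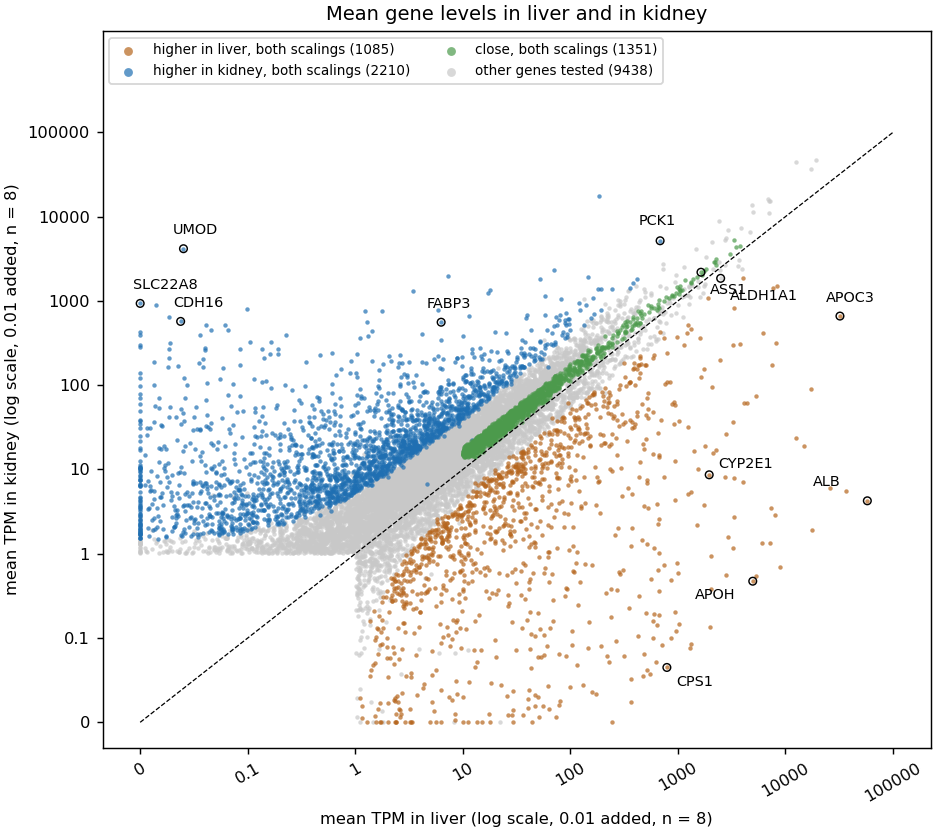
Mean level of each tested gene in liver (horizontal axis) and kidney (vertical axis), both in TPM on a log scale with 0.01 added, n = 8 libraries each; the dashed line marks equal levels. Orange points are the 1085 genes higher in liver under both scalings, blue points the 2210 higher in kidney under both, and green points the 1351 close under both; the close genes form a narrow band along the line.

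The largest differences toward liver were those of secreted plasma proteins. ALB (albumin, the main plasma carrier and osmotic protein; chromosome 8, 69531487 to 69721696, plus strand) stood at 36487, 53867 and 88171 TPM in liver, against 0.204, 1.2 and 18.5 TPM in kidney (14.10 ± 0.45, adjusted p = 3.7e-10). APOH, a phospholipid-binding plasma glycoprotein, stood at 3508, 4552 and 7162 TPM in liver, against 0, 0.173 and 1.76 TPM in kidney (11.80 ± 0.19). PLG, the precursor of the clot-dissolving protease plasmin, stood at 1785, 1977 and 2274 TPM in liver, against 0, 0.0413 and 0.578 TPM in kidney (10.81 ± 0.09). Each of these 3 had its lowest liver far above its highest kidney. SERPINA1, VTN, ITIH4, AHSG and APOE completed the leading group of 8, with differences between 9.77 for APOE and 10.39 for SERPINA1.

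The largest differences toward kidney were those of tubule proteins. UMOD (uromodulin, the main protein of normal urine; chromosome 3, 25473158 to 25492278, plus strand) stood at 0, 0 and 0.0504 TPM in liver, against 2458, 3067 and 6821 TPM in kidney (-11.89 ± 0.18, adjusted p = 2.1e-12). SLC22A8, an organic anion transporter of the basolateral membrane, was listed at 0 in all 8 livers and stood at 782, 843 and 1303 TPM in kidney (adjusted p = 4.0e-13). SLC34A1, the phosphate transporter of the proximal brush border, stood at 0, 0 and 0.0222 TPM in liver, against 404, 893 and 1483 TPM in kidney (-9.71 ± 0.17). No liver library came near a kidney library for any of them. MME, TMIGD1, CDH16, AOC1 and AMN completed the leading group, and AOC1, the histamine-degrading diamine oxidase, stood at 0, 0.0293 and 0.076 TPM in liver, against 398, 516 and 747 TPM in kidney (-8.94 ± 0.11).

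The 21 gene lists held 805 symbols, of which 687 were tested. Of the 226 metabolic genes, 77 were higher in liver and 59 in kidney (38 under both scalings), 62 were close (23 under both), and the median difference was 0.37 with TPM and 1.33 with median-ratio scaling. Of the 207 transport genes, 39 were higher in liver and 122 in kidney (101 under both), 12 were close (3 under both), and the medians were -1.63 and -0.98. Of the 169 genes of secreted and surface proteins, 109 were higher in liver and 44 in kidney (33 under both), 5 were close (2 under both), and the medians were 3.31 and 4.24. The liver and kidney shares were 34.1% and 26.1% for metabolic, 18.8% and 58.9% for transport, and 64.5% and 26.0% for secretory genes. Over all genes tested the medians were -0.83 and -0.01. Of all genes 7.70% were higher in liver, 40.2% in kidney (15.7% under both scalings) and 15.4% close (9.59% under both). The list counts below stand beside these shares of all genes. Libraries of the organs did not overlap for 50.0% of the metabolic, 72.5% of the transport and 87.6% of the secretory genes, against 53.6% of all genes.

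**Figure D2:**
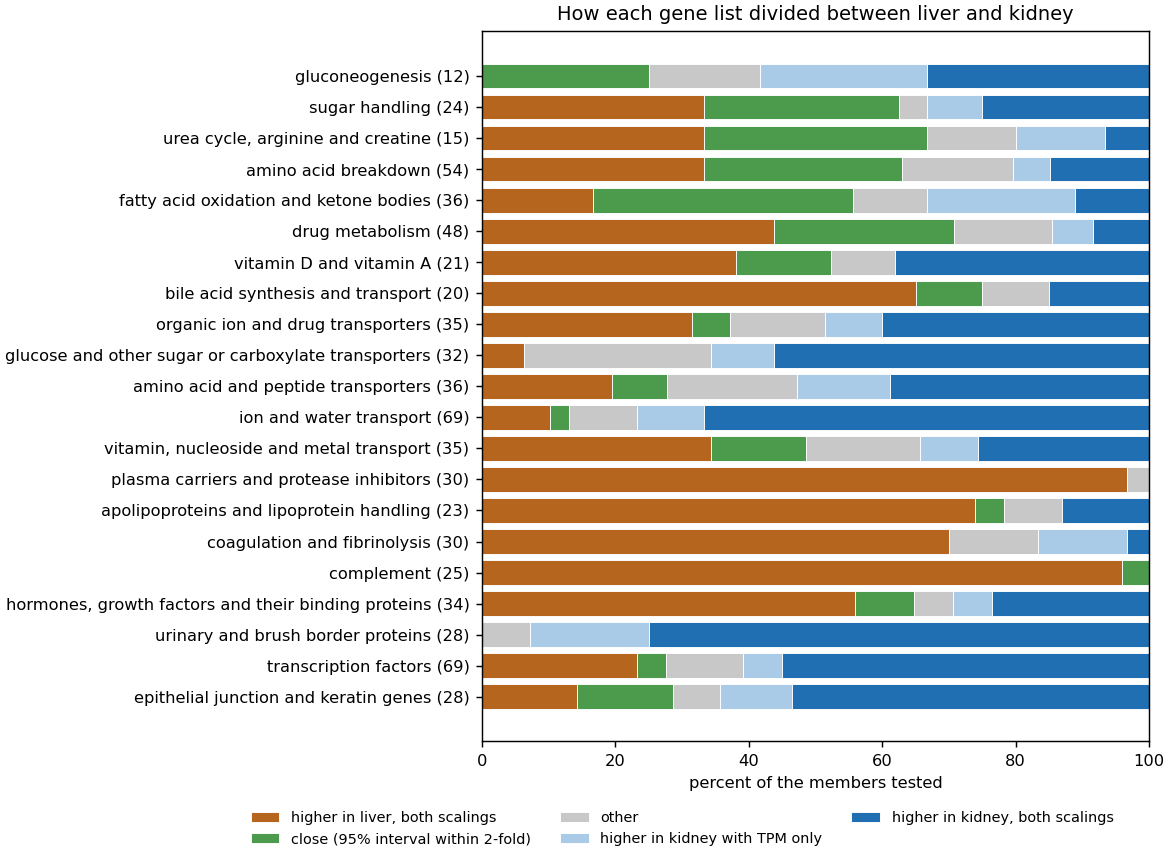
Share of each list's tested members (number in parentheses) that was higher in liver under both scalings, close with TPM, neither, higher in kidney with TPM only, or higher in kidney under both scalings. The plasma protein and complement lists are nearly all liver, and the urinary, ion transport and sugar transport lists are mostly kidney. The widest close sections, drawn with TPM only, are those of metabolic lists. Under both scalings 23 of the 226 metabolic genes were close, against 9.59% of all genes.

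Gluconeogenesis, the making of glucose from lactate, glycerol and amino acids, is known from both organs. Of 12 members tested with limma, 0 were higher in liver with TPM, by the call or at an unadjusted p under 0.05. With TPM 7 were higher in kidney (58.3%, against 40.2% of all genes), 4 of them under both scalings, while 3 were close (2 under both). The 0 for liver is given for TPM only, and median-ratio scaling moved the list toward liver. The medians were -1.27 with TPM and -0.31 with median-ratio scaling. PCK1 (cytosolic phosphoenolpyruvate carboxykinase, the rate-setting step; chromosome 17, 57930432 to 57936525, plus strand) stood at 279.6, 653 and 1059 TPM in liver, against 3773, 5061 and 6816 TPM in kidney (-2.97 ± 0.20, adjusted p = 1.2e-07). The lowest kidney exceeded the highest liver by a wide margin. Its mitochondrial counterpart PCK2 stood at 292, 349.98 and 551 TPM in liver, against 399.6, 473 and 827 TPM in kidney and was close (-0.43 ± 0.10, 95% interval -0.65 to -0.21), with overlapping libraries.

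MDH1, the cytosolic malate dehydrogenase that carries carbon and reducing power to the cytosol, stood at 46.7, 90.5 and 114 TPM in liver, against 335, 392 and 462 TPM in kidney (-2.27 ± 0.15, adjusted p = 7.9e-08). GPT2, the mitochondrial alanine aminotransferase, stood at 15.5, 83.8 and 170.4 TPM in liver, against 143, 278 and 674 TPM in kidney (-2.20 ± 0.34), and the organs overlapped in their extreme libraries. LDHD, a D-lactate dehydrogenase, stood at 8.16, 13.3 and 26.6 TPM in liver, against 39, 62.6 and 103 TPM in kidney (-2.08 ± 0.14) without overlap. All 3 held under both scalings. G6PC1, the glucose-6-phosphatase that frees glucose at the last step, was chosen after its values were seen and stood at 86.2, 468 and 763 TPM in liver, against 359.6, 1055 and 1907 TPM in kidney (-1.35 ± 0.38, with TPM only). The last-step transporter SLC37A4 and the aspartate aminotransferase GOT1 were close, with intervals of -0.97 to -0.42 and -0.00012 to 0.73.

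Sugar handling divided by isozyme. Of 24 members, 8 were higher in liver and 8 in kidney (6 under both scalings), and 7 were close (4 under both). The called shares were 33.3% each way, against 7.70% of all genes in liver and 40.2% in kidney. The medians were -0.27 and 0.67, of opposite sign in the 2 scalings. GYS2, the liver-type glycogen synthase, stood at 22.3, 58.2 and 83.2 TPM in liver, against 0, 0 and 0.0269 TPM in kidney (5.72 ± 0.20, adjusted p = 6.4e-10). PFKFB1, which sets the fructose bisphosphate signal that switches glycolysis, stood at 13.7, 29.6 and 39.3 TPM in liver, against 0, 0 and 0.0471 TPM in kidney (4.84 ± 0.16). For both, most kidneys were listed at 0.

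GCKR, a regulatory protein of hepatocyte sugar metabolism, stood at 58.4, 67.4 and 94.3 TPM in liver, against 9.4, 11.4 and 34.7 TPM in kidney (2.23 ± 0.22, adjusted p = 2.3e-06). HK1, the high-affinity hexokinase, stood at 3.87, 5.53 and 8.45 TPM in liver, against 26.3, 32 and 71.9 TPM in kidney (-2.47 ± 0.15). Neither overlapped between organs, GCKR being higher in liver and HK1 in kidney. At the last step of glycolysis PKLR, the liver-type pyruvate kinase, stood at 24.1, 33.4 and 62.4 TPM in liver, against 7.15, 10.3 and 20.5 TPM in kidney (1.66 ± 0.11). PKM, its counterpart of most other tissues, stood at 9.66, 12.6 and 30.3 TPM in liver, against 122, 174 and 487 TPM in kidney (-3.76 ± 0.16, adjusted p = 3.3e-09), and the 2 pyruvate kinases were also separated without overlap, in opposite directions.

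The glucuronate route was on both sides. MIOX, the myo-inositol oxygenase that opens inositol breakdown, stood at 2.62, 11.2 and 38.4 TPM in liver, against 925, 1199.7 and 1905 TPM in kidney (-6.53 ± 0.32, adjusted p = 1.0e-08). CRYL1, an L-gulonate dehydrogenase, stood at 14.2, 16.1 and 24.8 TPM in liver, against 1239, 1328 and 1577 TPM in kidney (-6.18 ± 0.11). RGN, a gluconolactonase, stood at 271, 867 and 1249 TPM in liver, against 80, 106 and 146 TPM in kidney (2.84 ± 0.19). The first 2 were separated toward kidney and the last toward liver, each without overlap. The fructose and polyol enzymes KHK, SORD and DCXR were close, with intervals of -0.68 to -0.36, 0.09 to 0.80 and -0.73 to -0.35.

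The urea cycle was split between its steps. In mammals the liver runs the whole cycle, and the kidney uses the citrulline-to-arginine section. Of 15 members of the urea, arginine and creatine list, 5 were higher in liver and 3 in kidney (1 under both scalings), and 5 were close (3 under both); the medians were -0.08 and 0.88. CPS1, the mitochondrial carbamoyl phosphate synthetase that commits ammonia to the cycle (chromosome 15, 113150157 to 113339090, plus strand), stood at 369, 771 and 1464 TPM in liver, against 0, 0.0142 and 0.189 TPM in kidney (9.44 ± 0.21, adjusted p = 2.3e-11). OTC, which makes citrulline, stood at 169.9, 287 and 479.5 TPM in liver, against 0, 0.0448 and 0.153 TPM in kidney (8.13 ± 0.17). ARG1, which releases urea from arginine, stood at 299, 678 and 947 TPM in liver, against 0.035, 0.23 and 0.798 TPM in kidney (8.92 ± 0.15). In the kidneys all 3 stayed below 1 TPM in every library.

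The 2 enzymes between them were at like levels in both organs. ASS1, which joins citrulline and aspartate, stood at 914, 1699.6 and 2384 TPM in liver, against 1556, 2176 and 2785 TPM in kidney (-0.46 ± 0.16, 95% interval -0.82 to -0.09). ASL, which then yields arginine, stood at 122, 176 and 229.6 TPM in liver, against 128, 169 and 319 TPM in kidney (-0.08 ± 0.16, 95% interval -0.43 to 0.26). Both overlapped widely between organs and both met the closeness rule with TPM. ARG2, the mitochondrial arginase, stood at 8.54, 20.8 and 40.6 TPM in liver, against 32.5, 52.6 and 86 TPM in kidney and was higher in kidney with TPM only (-1.29 ± 0.23, median-ratio difference -0.35).

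Creatine synthesis also had its steps apart. GATM, which makes guanidinoacetate, stood at 79.4, 233 and 407 TPM in liver, against 244, 723 and 1084 TPM in kidney and was higher in kidney with TPM only (-1.57 ± 0.20, median-ratio difference -0.61). GAMT, which methylates it to creatine, stood at 759, 849 and 1247 TPM in liver, against 36.9, 52.7 and 95.7 TPM in kidney (3.89 ± 0.10, adjusted p = 7.3e-11). The first overlapped between organs and the second did not. DDAH1, which breaks down methylated arginines, stood at 28.3, 61.5 and 80.8 TPM in liver, against 172, 317 and 437 TPM in kidney (-2.35 ± 0.20) and was higher in kidney under both scalings.

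**Figure D3:**
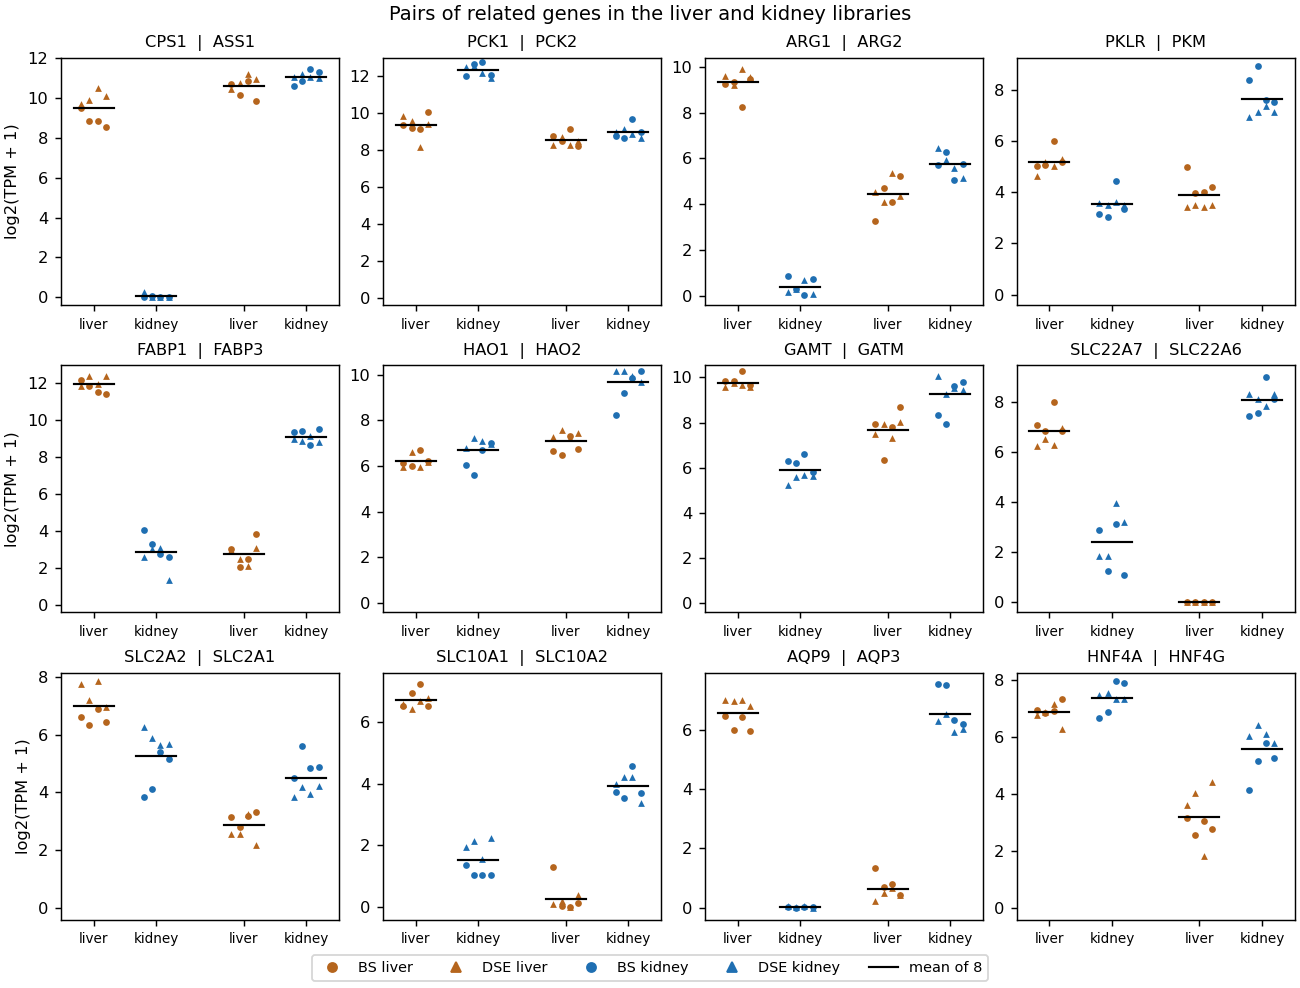
Levels of 12 pairs of related genes as log2(TPM + 1), liver left of kidney for each gene; each point is a library (circles BS, triangles DSE) and each line the mean of 8. CPS1, ARG1, PKLR, FABP1, GAMT, SLC22A7, SLC2A2, SLC10A1 and AQP9 are higher in liver without overlap, PCK1, PKM, FABP3, HAO2, SLC22A6, SLC2A1, SLC10A2 and AQP3 are higher in kidney without overlap (SLC2A1 with TPM only), and ASS1, PCK2, ARG2, HAO1, GATM, HNF4A and HNF4G overlap.

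Amino acid breakdown held more genes called in liver than in kidney. Of 54 members, 18 were higher in liver (33.3%) and 11 in kidney (20.4%), 8 of the latter under both scalings. Over all genes these shares were 7.70% and 40.2%. With TPM 16 of the 54 were close and under both scalings 3 were, against 15.4% and 9.59% of all genes. The medians were 0.61 and 1.55. TDO2, the tryptophan dioxygenase, stood at 549, 969.97 and 1234 TPM in liver, against 0, 0 and 0.40 TPM in kidney (9.75 ± 0.11, adjusted p = 5.5e-13). MAT1A, the liver-type methionine adenosyltransferase, stood at 336, 606 and 843 TPM in liver, against 0.0946, 0.137 and 0.227 TPM in kidney (8.96 ± 0.12). TAT, the tyrosine aminotransferase, stood at 179, 482 and 2159 TPM in liver, against 0.861, 2.79 and 3.99 TPM in kidney (7.23 ± 0.30). These 3 opening steps, with UROC1 of histidine breakdown (5.90), were the 4 largest toward liver, and none overlapped.

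GLS2, a glutaminase, which releases ammonia from glutamine, stood at 50.6, 69.5 and 108 TPM in liver, against 1.08, 2.51 and 7.26 TPM in kidney (4.30 ± 0.30, adjusted p = 1.4e-07), with every liver above every kidney. Toward kidney stood a tryptophan branch-point enzyme, a decarboxylase and a methyltransferase. ACMSD, which diverts tryptophan carbon from NAD synthesis, stood at 4.27, 30.3 and 90.9 TPM in liver, against 251, 271 and 326 TPM in kidney (-3.34 ± 0.34). DDC, the aromatic amino acid decarboxylase that makes dopamine in the tubule, stood at 22.7, 69.7 and 88 TPM in liver, against 206, 403 and 793 TPM in kidney (-2.90 ± 0.17). Neither of these 2 overlapped between organs.

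The betaine-homocysteine methyltransferases differed from each other. BHMT stood at 733, 1264 and 1821 TPM in liver, against 72, 949 and 1569 TPM in kidney (0.97 ± 0.35), was not called with TPM and had a median-ratio difference of 1.94. Its TPM difference passed 2-fold without the animal BS1, BS3, DSE1, DSE2, DSE3 or DSE4, at 1.0 to 1.11. BHMT2, its close paralog, stood at 148, 179 and 275 TPM in liver, against 831, 1369 and 2202 TPM in kidney (-2.81 ± 0.16, adjusted p = 2.6e-08), and near-identical stretches between such copies can share reads. HAO2, a peroxisomal hydroxyacid oxidase, stood at 89.4, 152 and 192 TPM in liver, against 298, 964 and 1159 TPM in kidney (-2.58 ± 0.17), while the glycolate oxidase HAO1 was close at 61, 69.9 and 104 TPM in liver, against 48.2, 117 and 149 TPM in kidney (95% interval -0.84 to -0.09). AGXT, the glyoxylate aminotransferase, stood at 196, 301 and 826 TPM in liver, against 112, 157 and 411 TPM in kidney (0.79 ± 0.15), and AGXT2 was close (95% interval -0.69 to 0.18). GLUD1 (glutamate dehydrogenase) and DPYS (dihydropyrimidinase) were close too, with intervals of -0.67 to 0.25 and -0.31 to 0.70.

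Genes of fatty acid oxidation and ketone bodies were divided. Of 36 members, 6 were higher in liver and 12 in kidney (4 under both scalings), and 14 were close (6 under both). The called shares were 16.7% in liver and 33.3% in kidney, against 7.70% and 40.2% of all genes. The medians were -0.19 and 0.77. Peroxisomal members among the close genes included both bifunctional enzymes and a thiolase. EHHADH, a bifunctional enzyme, stood at 227, 357 and 431 TPM in liver, against 186, 399 and 592 TPM in kidney (95% interval -0.45 to 0.29). HSD17B4, the other bifunctional enzyme, stood at 252, 341 and 424 TPM in liver, against 222, 347 and 406 TPM in kidney (95% interval -0.19 to 0.19). ACAA1, the thiolase, stood at 341, 407 and 576 TPM in liver, against 584, 712 and 1004 TPM in kidney (95% interval -0.96 to -0.65). The first 2 overlapped widely between organs, and ACAA1 met the rule without any overlap.

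OXCT1, which lets tissues use ketone bodies, stood at 1.49, 2.46 and 5.36 TPM in liver, against 73, 128 and 153 TPM in kidney (-5.11 ± 0.21, adjusted p = 2.9e-09), without overlap. Fatty acid carriers were divided. FABP1, the liver fatty acid-binding protein, stood at 2764, 3828 and 5462 TPM in liver, against 1.51, 6.4 and 15.8 TPM in kidney (9.11 ± 0.26). FABP3, the heart-type one, stood at 3.15, 5.64 and 13.4 TPM in liver, against 404, 533 and 729 TPM in kidney (-6.35 ± 0.18). SLC27A5, which activates bile acids and very long fatty acids, stood at 304, 428 and 676 TPM in liver, against 3.7, 8.26 and 17.3 TPM in kidney (5.64 ± 0.23). The long-chain acyl-CoA synthetase ACSL1 stood at 502, 985 and 1735 TPM in liver, against 341, 556 and 1036 TPM in kidney (0.80 ± 0.28), not called with all animals and at 1.06 without DSE3.

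More drug-metabolising enzymes were called in liver than in kidney. Of 48 members, 21 were higher in liver and 7 in kidney (4 under both scalings), 13 were close (2 under both), and the medians were 0.77 and 1.74. The called shares were 43.8% in liver and 14.6% in kidney, against 7.70% and 40.2% of all genes. Genes of the CYP and UGT families have near-identical copies, so their counts carry that uncertainty. NNMT, a nicotinamide methyltransferase, stood at 379, 885 and 2262 TPM in liver, against 0, 0.0667 and 3.96 TPM in kidney (9.35 ± 0.17, adjusted p = 5.3e-12). ADH4, an alcohol dehydrogenase, stood at 163, 676 and 1011 TPM in liver, against 0, 0.0296 and 0.138 TPM in kidney (8.99 ± 0.29). UGT2B31, a glucuronosyltransferase, stood at 513, 980.3 and 1307 TPM in liver, against 0.50, 2.81 and 12.5 TPM in kidney (7.75 ± 0.33). The ethanol- and acetone-oxidising CYP2E1 stood at 743, 2108 and 2408 TPM in liver, against 6.45, 7.87 and 11.3 TPM in kidney (7.62 ± 0.22), and its exons overlap those of SYCE1. None of the 4 overlapped between organs.

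On the kidney side, DPEP1, a brush border dipeptidase of glutathione conjugates, stood at 0.0291, 1.56 and 3.02 TPM in liver, against 309, 386 and 499.7 TPM in kidney (-7.57 ± 0.26, adjusted p = 6.4e-10). ACY1, the aminoacylase, stood at 128, 170.2 and 225 TPM in liver, against 1016, 1446 and 1859 TPM in kidney (-2.94 ± 0.09). HNMT, which inactivates histamine, stood at 9.11, 16.3 and 20.4 TPM in liver, against 28.9, 66.4 and 94.8 TPM in kidney (-2.02 ± 0.18). All 3 held under both scalings without overlap. CYP4A24, a fatty acid hydroxylase, stood at 24.8, 51.8 and 124 TPM in liver, against 14.9, 341 and 552 TPM in kidney (-2.27 ± 0.57), its lowest kidney being BS3, below every liver, and it was higher in kidney with TPM only. Several highly abundant enzymes were close with TPM, where only 2 of the 13 close members were close under both scalings. ALDH1A1, the retinal and aldehyde dehydrogenase, stood at 1338, 2699.7 and 3277 TPM in liver, against 653, 1926 and 3282 TPM in kidney (95% interval 0.10 to 0.94). MGST1, the microsomal glutathione transferase, stood at 1157, 1603 and 1970.01 TPM in liver, against 557, 1288 and 1514 TPM in kidney (95% interval 0.22 to 0.92). EPHX1 and GLYAT, an epoxide hydrolase and the glycine acyltransferase, had intervals of -0.55 to 0.09 and 0.18 to 0.62. The flavin monooxygenase FMO1 stood at 128, 795 and 1275 TPM in liver, against 259.5, 746 and 1119.7 TPM in kidney and was neither called nor close (95% interval -1.09 to 0.41).

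Bile acid genes divided by direction of flow. Of 20 members, 13 were higher in liver, 3 in kidney (all under both scalings) and 2 close (1 under both), with medians of 2.19 and 2.75. CYP7A1, the hydroxylase that opens and sets the pace of that synthesis, stood at 1.61, 73 and 416 TPM in liver, against 0, 0.10 and 0.233 TPM in kidney (5.54 ± 0.62, adjusted p = 6.8e-06), with a wide spread among the livers. AKR1D1, the steroid reductase of the same route, stood at 301, 569 and 708 TPM in liver, against 0.223, 0.482 and 0.892 TPM in kidney (8.53 ± 0.12). SLC10A1, which takes bile acids up from blood, stood at 84.4, 98.1 and 150.3 TPM in liver, against 1.04, 1.78 and 3.69 TPM in kidney (5.17 ± 0.20). ABCB11, the export pump into bile, stood at 37.5, 95.4 and 155 TPM in liver, against 0.045, 0.291 and 0.909 TPM in kidney (6.01 ± 0.18). The liver and kidney libraries of all 4 were separate.

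The 3 kidney-side members were transporters. SLC10A2, the apical uptake carrier, stood at 0, 0.0826 and 1.44 TPM in liver, against 9.42, 13.6 and 23.1 TPM in kidney (-3.65 ± 0.21, adjusted p = 3.4e-08). SLC51A, a subunit of the basolateral bile acid exporter, stood at 0.0613, 0.125 and 0.175 TPM in liver, against 24.7, 42.9 and 56.5 TPM in kidney (-5.25 ± 0.13). SLC51B, its partner subunit (chromosome 1, 163081180 to 163089490, plus strand), stood at 0.819, 7.1 and 25.9 TPM in liver, against 117, 179.97 and 192 TPM in kidney (-4.57 ± 0.46). Again the organs did not overlap. CYP39A1, an oxysterol hydroxylase, and FGFR4, the receptor that relays the gut bile acid signal, were close, with intervals of 0.27 to 0.97 and -0.48 to -0.02.

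The vitamin D and vitamin A genes were shared out between making, carrying and activating. Of 21 members, 8 were higher in liver and 8 in kidney, all under both scalings, and 3 were close (2 under both). The called shares were 38.1% each way, against 7.70% of all genes in liver and 40.2% in kidney. GC, the plasma vitamin D-binding protein, stood at 2388, 2895 and 3152 TPM in liver, against 15.9, 20.3 and 55.8 TPM in kidney (6.8 ± 0.20, adjusted p = 1.7e-10). CYP27B1, which makes the active hormone, stood at 0.177, 0.319 and 0.938 TPM in liver, against 8.03, 13.2 and 28.2 TPM in kidney (-3.44 ± 0.19). VDR, its receptor, stood at 0.0106, 0.0219 and 0.13 TPM in liver, against 34.8, 40.5 and 49.6 TPM in kidney (-5.31 ± 0.09). The carrier was separated toward liver, the activating enzyme and the receptor toward kidney. CYP2R1, the 25-hydroxylase, stood at 2.66, 3.97 and 5.67 TPM in liver, against 4.46, 9.41 and 12.9 TPM in kidney (-0.90 ± 0.13) and was not called, except without BS1, where its difference was -1.0.

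The vitamin A carriers RBP4 and TTR were in liver, and RBP4 stood at 2541, 3134 and 4427 TPM in liver, against 16.3, 32.5 and 63.3 TPM in kidney (6.54 ± 0.19). TTR, which also carries thyroid hormone, stood at 5583, 7130.3 and 10886 TPM in liver, against 2.84, 34.3 and 920.4 TPM in kidney (7.62 ± 0.79), its highest kidney being DSE1. TTR is itself among the 15 hepatocyte markers, and it made up most of the DSE1 kidney's marker sum of 1250 TPM. The receptors that recover such carriers from the filtrate were in kidney. LRP2, megalin, stood at 0.00227, 0.00872 and 0.095 TPM in liver, against 168, 459 and 555 TPM in kidney (-8.47 ± 0.20). CUBN, cubilin, stood at 0, 0.00839 and 0.0184 TPM in liver, against 43.2, 170.4 and 281 TPM in kidney (-7.14 ± 0.27). AMN, the protein that brings cubilin to the surface, stood at 0, 0.0561 and 0.14 TPM in liver, against 294, 399 and 816 TPM in kidney (-8.65 ± 0.14). No liver exceeded 1 TPM for any of the 3. The retinal-handling RDH10 and DHRS3 were close, with intervals of -0.52 to 0.12 and -0.74 to -0.35.

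Organic ion and drug transporters were split between the organs by family member. Of 35 tested, 11 were higher in liver and 17 in kidney (14 under both scalings), 2 were close (1 under both), and the medians were -0.88 and 0.11. The called shares were 31.4% in liver and 48.6% in kidney, against 7.70% and 40.2% of all genes. SLC22A2, an organic cation uptake carrier, stood at 0, 0.0164 and 0.292 TPM in liver, against 98.1, 181 and 258 TPM in kidney (-7.29 ± 0.20, adjusted p = 1.1e-10). Its organs did not overlap. SLC47A1 and SLC47A2, which export cations into urine and in other mammals also into bile, were both higher in kidney; SLC47A1 stood at 0, 0.201 and 1.8 TPM in liver, against 32.7, 51.4 and 145 TPM in kidney (-5.33 ± 0.14). SLC47A2 stood at 0, 0.0196 and 0.0911 TPM in liver, against 128, 169.7 and 422 TPM in kidney (-7.55 ± 0.18).

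Anion uptake was separated. SLC22A6 was listed at 0 in all 8 livers and stood at 172, 273 and 508 TPM in kidney (adjusted p = 8.0e-12). SLC22A7 stood at 73.8, 113 and 250.4 TPM in liver, against 1.14, 4.51 and 14.3 TPM in kidney (4.44 ± 0.32, adjusted p = 2.0e-07). SLC22A12, the urate exchanger, stood at 0, 0 and 0.0345 TPM in liver, against 208, 232 and 403 TPM in kidney (-8.04 ± 0.13). All 3 were separated, SLC22A7 toward liver. On the liver side, the anion carriers SLCO1A2 and SLCO2B1 and the phosphate carrier relative SLC17A2 had differences of 5.8, 3.56 and 4.89. ABCG8, a subunit of the sterol exporter into bile, stood at 24.4, 39.8 and 41.1 TPM in liver, against 0, 0 and 0.0168 TPM in kidney (5.18 ± 0.11).

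Sugar and carboxylate transporters were mostly a kidney set. Of 32 tested, 2 were higher in liver and 21 in kidney (18 under both scalings), with medians of -2.19 and -1.58, and by limma's interval 0 were close. SLC2A2, the facilitative transporter through which both organs release glucose, stood at 79, 119.9 and 232 TPM in liver, against 13.3, 44.9 and 76.7 TPM in kidney (1.76 ± 0.17, adjusted p = 2.4e-06). The organs did not overlap, and liver was the higher. SLC2A1, the transporter of most cells, stood at 3.51, 6.88 and 9.08 TPM in liver, against 13.5, 19.6 and 48 TPM in kidney and was higher in kidney with TPM only (-1.63 ± 0.19). SLC2A10 was the other member called in liver, at 1.34, 3.08 and 6.06 TPM in liver, against 0.399, 0.639 and 0.901 TPM in kidney (1.40 ± 0.22, and 0.87 in the DSE animals alone).

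The sodium-coupled carriers recover solutes from the filtrate. SLC5A2, the main glucose carrier of the early proximal tubule, stood at 0, 0.0305 and 0.0624 TPM in liver, against 169.9, 231 and 525 TPM in kidney (-7.92 ± 0.16, adjusted p = 1.0e-11). SLC5A12, a lactate carrier, stood at 0.0177, 0.0521 and 0.080 TPM in liver, against 115, 506 and 1005 TPM in kidney (-8.63 ± 0.32). SLC5A10, a mannose and fructose carrier, stood at 0.281, 0.559 and 0.91 TPM in liver, against 119.7, 189 and 609 TPM in kidney (-7.06 ± 0.23). No liver reached 1 TPM for any of them. SLC13A2, the dicarboxylate carrier, stood at 0.0173, 0.382 and 1.74 TPM in liver, against 84.7, 127 and 213 TPM in kidney (-6.35 ± 0.21). SLC13A5, the citrate carrier, stood at 11.2, 20.6 and 25.7 TPM in liver, against 1.26, 11.3 and 17.5 TPM in kidney (0.88 ± 0.30), overlapped, and was not called with all animals, while its difference was 1.02 without DSE3.

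Amino acid and peptide transporters included liver members for cationic and neutral amino acids. Of 36 tested, 7 were higher in liver and 19 in kidney (14 under both scalings), 3 were close (1 under both), and the medians were -1.04 and -0.17. SLC38A4, a neutral amino acid carrier, stood at 338, 511 and 631 TPM in liver, against 0.0777, 0.232 and 0.274 TPM in kidney (8.70 ± 0.11, adjusted p = 5.8e-13). SLC7A2, a cationic amino acid carrier, stood at 42.1, 79.6 and 221 TPM in liver, against 1.39, 2.96 and 4.23 TPM in kidney (4.50 ± 0.18). SLC1A2, a glutamate carrier, stood at 0.824, 5.85 and 7.07 TPM in liver, against 0.184, 0.303 and 0.715 TPM in kidney (1.90 ± 0.28). None of the 3 overlapped. SLC6A12, the betaine carrier, stood at 39.8, 53.6 and 91.1 TPM in liver, against 0.0994, 0.334 and 57.5 TPM in kidney (4.56 ± 0.50), and its highest kidney, BS2, lay within the liver range, the next kidney being at 2.51 TPM.

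In kidney the brush border carriers led. SLC6A18 and SLC6A19, neutral amino acid carriers, were listed at 0 in all 8 livers. In kidney SLC6A18 stood at 221, 297 and 926 TPM (adjusted p = 1.0e-10) and SLC6A19 at 41.8, 56 and 95.9 TPM. SLC3A1, a subunit of the cystine carrier, stood at 0.921, 5.51 and 12.9 TPM in liver, against 48.3, 261 and 294 TPM in kidney (-4.76 ± 0.35). Its partner SLC7A9 stood at 1.78, 2.8 and 4.61 TPM in liver, against 29.6, 48.3 and 66.6 TPM in kidney (-3.66 ± 0.17), and SLC1A1, the tubule glutamate carrier, at 4.48, 8.11 and 12.3 TPM in liver, against 13.3, 93.9 and 143 TPM in kidney (-3.02 ± 0.35). These were separate in every library. SLC6A20 (proline carrier), SLC15A4 and SLC38A10 were close, with intervals of -0.46 to 0.47, 0.33 to 0.74 and -0.43 to -0.13.

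Ion and water transport leaned most to kidney among the transport lists. Of 69 tested, 7 were higher in liver and 53 in kidney (46 under both scalings), 2 were close with TPM and 0 under both, and the medians were -4.19 and -3.29. SLC12A1, the salt carrier of the thick ascending limb, stood at 0.00656, 0.0308 and 0.0538 TPM in liver, against 165, 272 and 389 TPM in kidney (-8.02 ± 0.13, adjusted p = 3.2e-12). ATP6V1B1, a proton pump subunit of intercalated cells, stood at 0.155, 0.227 and 0.28 TPM in liver, against 292, 357 and 569.6 TPM in kidney (-8.29 ± 0.12). AQP2, the vasopressin-controlled water channel, was listed at 0 in all 8 livers and stood at 172, 223 and 617 TPM in kidney (adjusted p = 8.0e-11). No liver reached 1 TPM for any of them.

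The glycerol and water channels stood in opposite organs. AQP9, through which hepatocytes take up glycerol, stood at 62.2, 98.9 and 128 TPM in liver, against 0, 0.0108 and 0.0369 TPM in kidney (6.57 ± 0.14, adjusted p = 1.5e-11). AQP3, of the collecting duct, stood at 0.172, 0.509 and 1.55 TPM in liver, against 60.4, 79.2 and 188 TPM in kidney (-5.91 ± 0.15). Neither overlapped. The other leading members on the liver side were the claudin CLDN14 at 47.7, 109.7 and 182 TPM in liver, against 0.245, 0.704 and 1.38 TPM in kidney (5.90 ± 0.26), and the carbonic anhydrases CA5A and CA14, with differences of 4.34 and 3.69. The phosphate carrier SLC20A1 and the channel kinase TRPM7 were close, with intervals of -0.47 to 0.43 and -0.18 to 0.22.

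Vitamin, nucleoside and metal transport had equal numbers of calls in liver and kidney. Of 35 tested, 12 were higher in liver and 12 in kidney (9 under both scalings), and 5 were close (1 under both), with medians of -0.51 and 0.42. That is 34.3% each way, against 7.70% of all genes in liver and 40.2% in kidney. Iron sensing stood in liver. HJV, the hemojuvelin that drives hepcidin, stood at 36.1, 97.3 and 129 TPM in liver, against 0, 0 and 0.304 TPM in kidney (6.38 ± 0.18, adjusted p = 1.2e-10). TFR2, a transferrin sensor, stood at 137, 169.9 and 272 TPM in liver, against 0.499, 2.14 and 5.52 TPM in kidney (5.64 ± 0.27). The cellular iron receptor TFRC was close, at 5.74, 31.6 and 54.5 TPM in liver, against 16.8, 33.5 and 38.3 TPM in kidney (95% interval -0.69 to 0.28). The first 2 did not overlap between organs and TFRC did.

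Of the metal genes, MT1A, a metallothionein, stood at 1998, 5866 and 11407 TPM in liver, against 0, 435 and 837 TPM in kidney (4.87 ± 0.77), its kidney value of 0 coming from BS3, and near-identical metallothionein copies may share its reads. ATP7B, the copper exporter into bile, stood at 11, 19.2 and 33.3 TPM in liver, against 0.93, 1.41 and 2.17 TPM in kidney (3.07 ± 0.15), while the copper importer SLC31A1 was close (95% interval 0.14 to 0.71). The thiamine and choline carriers SLC19A3 and SLC44A4 were in kidney, with differences of -3.95 and -6.13. SLC39A5, a zinc carrier, was close (95% interval -0.16 to 0.41).

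Plasma proteins were the clearest liver set. Of 30 carriers and protease inhibitors, 29 were higher in liver under both scalings, and with limma 0 were higher in kidney, by the call or at an unadjusted p under 0.05. The medians were 6.71 and 7.65. AHSG, fetuin, stood at 2091, 3510.2 and 4276 TPM in liver, against 1.55, 2.87 and 4.08 TPM in kidney (9.79 ± 0.16, adjusted p = 3.1e-12). SERPINA1, the elastase inhibitor, stood at 1282, 2096 and 2685 TPM in liver, against 0, 0.173 and 6.01 TPM in kidney (10.39 ± 0.29). ITIH4, a hyaluronan-linked inhibitor of the acute phase, stood at 844, 3038 and 6144 TPM in liver, against 0.683, 1.18 and 1.55 TPM in kidney (10.34 ± 0.29). In each case the highest kidney was below 10 TPM.

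Complement was as one-sided. Of 25 members, 24 were higher in liver under both scalings and 1 was close with TPM, and with limma 0 were higher in kidney by either measure. C3, on which all the pathways converge, stood at 2232, 2696 and 3380.5 TPM in liver, against 3.79, 7.39 and 15.7 TPM in kidney (8.32 ± 0.17, adjusted p = 1.5e-11). C8A, of the membrane attack complex, stood at 342, 492 and 664 TPM in liver, against 0, 0.0534 and 0.118 TPM in kidney (8.83 ± 0.11). CFB, of the alternative pathway, stood at 1113, 1362 and 1500.3 TPM in liver, against 1.56, 3.93 and 12.5 TPM in kidney (7.95 ± 0.28), and its exons overlap C2 and NELFE. None overlapped between organs. The close member was CFD, the factor B protease known from fat tissue, at 20.7, 35.3 and 43.5 TPM in liver, against 11.3, 24.8 and 39.6 TPM in kidney (95% interval 0.0011 to 0.70).

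Coagulation leaned to liver, and its share of kidney calls was below that of all genes. Of 30 members, 21 were higher in liver (70.0%) and 5 in kidney (16.7%), of which 1 held under both scalings, with medians of 3.44 and 4.39. Over all genes 7.70% were higher in liver and 40.2% in kidney (15.7% under both scalings). FGG, a fibrinogen chain, stood at 6607, 12037 and 17846 TPM in liver, against 11.8, 21.6 and 45.2 TPM in kidney (9.03 ± 0.26, adjusted p = 1.5e-10). VTN, vitronectin, stood at 2236, 2889 and 3514 TPM in liver, against 1.01, 1.43 and 2.94 TPM in kidney (10.17 ± 0.11). PLAT, the tissue plasminogen activator, stood at 0.447, 1.13 and 1.64 TPM in liver, against 22.7, 29.8 and 40.7 TPM in kidney (-3.91 ± 0.11) and was the kidney call that held under both scalings. The plasminogen-side genes were thus in opposite organs without overlap, PLG in liver and PLAT in kidney. The endothelial products F8 and VWF were higher in kidney with TPM only, with differences of -1.75 and -1.37 and median-ratio differences of -0.82 and -0.63.

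Of 23 apolipoprotein and lipoprotein genes, 17 were higher in liver and 3 in kidney, all under both scalings, and 1 was close; the medians were 5.74 and 6.54. APOE stood at 12746, 14497 and 17248 TPM in liver, against 5.17, 17.3 and 35.8 TPM in kidney (9.77 ± 0.23, adjusted p = 3.9e-11). APOA2, of high-density lipoprotein, stood at 413, 608 and 961 TPM in liver, against 0, 0.0533 and 0.518 TPM in kidney (9.11 ± 0.16). APOC3, an inhibitor of triglyceride clearance, stood at 27308, 32344 and 35525 TPM in liver, against 368, 527 and 1317 TPM in kidney (5.74 ± 0.21). In kidney, APOD, a lipocalin, stood at 0.785, 1.91 and 7.18 TPM in liver, against 15.6, 45.2 and 68.5 TPM in kidney (-3.48 ± 0.16), and APOO, a mitochondrial protein despite its name, stood at 5.96, 6.44 and 8.08 TPM in liver, against 44.4, 57.6 and 68.2 TPM in kidney (-2.93 ± 0.07). LPL, the lipase of vessel walls, stood at 0.0295, 0.137 and 8.74 TPM in liver, against 4.27, 5.74 and 11.1 TPM in kidney (-2.13 ± 0.38) with overlap. APOM was close, at 90.5, 117 and 143 TPM in liver, against 47.9, 85.4 and 124 TPM in kidney (95% interval 0.11 to 0.78).

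Hormones, growth factors and binding proteins were on both sides. Of 34 members, 19 were higher in liver and 10 in kidney (8 under both scalings), and 3 were close (2 under both), with medians of 1.18 and 2.05. AGT, the precursor of angiotensin, stood at 225, 413 and 467 TPM in liver, against 0.488, 1.55 and 5.49 TPM in kidney (7.10 ± 0.19, adjusted p = 1.0e-10). Every liver was above every kidney. IGFBP1, an insulin-controlled binding protein, stood at 19.1, 325 and 462 TPM in liver, against 0, 0 and 0.399 TPM in kidney (7.47 ± 0.44). IGFBP5 stood at 0.626, 1.0 and 1.48 TPM in liver, against 68.4, 115 and 210.03 TPM in kidney (-5.89 ± 0.19), and IGFBP2 was close at 42.6, 122 and 262 TPM in liver, against 42.9, 81.6 and 182 TPM in kidney (95% interval -0.08 to 0.79). EGF, the growth factor of the distal tubule, stood at 0.0485, 0.141 and 0.401 TPM in liver, against 77, 269.7 and 423 TPM in kidney (-7.67 ± 0.26). VEGFA and LEAP2 were close, with intervals of -0.72 to -0.31 and -0.61 to 0.04.

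Urinary and brush border proteins were a kidney set. Of 28 tested with limma, 26 were higher in kidney (21 under both scalings), with medians of -4.43 and -3.83. With TPM 0 were higher in liver by the call or at an unadjusted p under 0.05. MME, neprilysin, stood at 0.0393, 0.0707 and 0.198 TPM in liver, against 204, 889 and 1327 TPM in kidney (-9.30 ± 0.30, adjusted p = 4.0e-10). TMIGD1, an adhesion molecule, stood at 0, 0 and 0.0342 TPM in liver, against 263, 567 and 1170.1 TPM in kidney (-9.19 ± 0.22). Neither reached 1 TPM in any liver.

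Most transcription factors of the list were higher in kidney with TPM. Of 69 tested, 16 were higher in liver and 42 in kidney (38 under both scalings), and 3 were close (2 under both), with medians of -2.07 and -1.66. HNF4A, the nuclear receptor of hepatocytes and proximal tubule, was close at 77.5, 119 and 159 TPM in liver, against 102, 169 and 248 TPM in kidney (95% interval -0.82 to -0.17). HNF4G, its relative, stood at 2.56, 7.61 and 20.5 TPM in liver, against 16.7, 54.8 and 85 TPM in kidney (-2.41 ± 0.29, adjusted p = 1.3e-05) with slight overlap.

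On the liver side were FOXA2 and FOXA3, forkhead factors of the gut endoderm. FOXA3 stood at 19.8, 26.4 and 40.2 TPM in liver, against 0.0413, 0.137 and 0.256 TPM in kidney (4.67 ± 0.13, adjusted p = 9.4e-11), and FOXA2 at 6.57, 19.3 and 24.9 TPM in liver, against 0, 0 and 0.0851 TPM in kidney (4.12 ± 0.19). ATF5, a stress-linked factor abundant in hepatocytes, stood at 436, 633 and 1014 TPM in liver, against 1.84, 3.47 and 5.98 TPM in kidney (7.07 ± 0.13). In kidney HOX genes led, which mark position along the body axis. HOXD8 stood at 0, 0.0287 and 0.0806 TPM in liver, against 121, 165 and 211 TPM in kidney (-7.30 ± 0.11, adjusted p = 2.2e-12). HOXA10 was listed at 0 in all 8 livers and stood at 55.8, 65.8 and 92.8 TPM in kidney. None of these overlapped. NR1I2, the xenobiotic receptor, and NR2F1 were close, with intervals of 0.17 to 0.69 and -0.74 to -0.30.

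Epithelial junction and keratin genes leaned to kidney. Of 28 tested, 4 were higher in liver and 18 in kidney (15 under both scalings), and 4 were close (1 under both), with medians of -1.88 and -1.18. EPCAM, an adhesion molecule of simple epithelium that hepatocytes lack, stood at 1.79, 2.73 and 2.97 TPM in liver, against 162, 245 and 281 TPM in kidney (-6.0 ± 0.10, adjusted p = 3.7e-12). CDH16, the kidney cadherin, stood at 0, 0.0165 and 0.0237 TPM in liver, against 416, 551 and 773 TPM in kidney (-9.11 ± 0.12). KRT18 stood at 96, 113 and 152 TPM in liver, against 10.7, 12.3 and 25.3 TPM in kidney (2.91 ± 0.12), while its partner keratin KRT8 was close at 136, 193 and 296 TPM in liver, against 115, 141 and 207 TPM in kidney (95% interval 0.12 to 0.68). GJB1, the gap junction protein of hepatocytes, stood at 252, 300.4 and 471 TPM in liver, against 71.4, 93.3 and 143 TPM in kidney (1.74 ± 0.08). CDH1 (E-cadherin) overlapped and was not called (0.76 ± 0.23). CDH2 (N-cadherin) was close (95% interval -0.29 to 0.58).

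To find what the organs share against the rest of the body, liver and kidney were each set against heart, lung and spleen. In 279 of 16481 genes all 6 contrasts were at least 4-fold and significant (1.69%), and 125 of them were listed genes. By pathway they were most numerous in amino acid breakdown, with 27 of 54 members, drug metabolism, with 12 of 48, and coagulation, with 12 of 30, and gluconeogenesis had 8 of its 12 members. Of the 279, 82 were close between liver and kidney, 88 higher in liver and 64 higher in kidney with TPM. BHMT averaged 1274 ± 413 TPM in liver and 909 ± 592 TPM in kidney (SD, n = 8 each), against 0.179 in heart, 0.0783 in lung and 0.0787 in spleen. GLYAT averaged 954 ± 174 TPM in liver and 727 ± 157 TPM in kidney, against 0.204 in heart, 0.111 in lung and 0.165 in spleen. Both stayed below 1 TPM in each of the other tissues.

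Among those close between liver and kidney, ASS1 averaged 1639.95 ± 474 TPM in liver and 2191 ± 381 TPM in kidney, against 12.3 in heart, 12 in lung and 15.4 in spleen. GLUD1 averaged 708 ± 169 TPM in liver and 857 ± 319.8 TPM in kidney, against 98.6 in heart, 169 in lung and 115 in spleen. HNF4A averaged 120.3 ± 23.8 TPM in liver and 174 ± 51.3 TPM in kidney, against 0.0557 in heart, 0.304 in lung and 0.0653 in spleen. HNF4A was near 0 outside liver and kidney, while the other 2 stood at lower but clear levels. Abundant detoxifying genes such as ALDH1A1 and MGST1 were close between the organs with TPM without meeting the rule against the other tissues.

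Several genes differed between the organs in which transcript they used. Of 6017 genes with at least 5 TPM in both organs, 343 had a transcript whose share of the gene shifted by at least 20 percentage points with an adjusted p below 0.05 (5.70%), and of 320 listed genes 35 did. HNF4G drew 62.5 ± 12.3% of its liver TPM and 2.15 ± 1.39% of its kidney TPM from an 11-exon long-read transcript that reaches to 60637336 on chromosome 4 (adjusted p = 3.1e-06). A 10-exon transcript that reaches to 60533991 gave 0.362 ± 0.672% in liver and 77.0 ± 10.3% in kidney (SD, n = 8 each; adjusted p = 2.5e-06). The most used transcripts of the organs thus differed in their end on that side. SLC3A1 drew 39.9 ± 13% in liver and 0.808 ± 1.16% in kidney from a 12-exon transcript. An 11-exon transcript that reaches to 96215466 on chromosome 3 was listed at 0 in the livers and gave 75.2 ± 11.5% in the kidneys.

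SLCO2B1 drew 70.5 ± 21.4% of its liver TPM from a 14-exon transcript (chromosome 9, 9432587 to 9474249) that was listed at 0 in kidney. STAT2, an interferon signalling factor outside the lists, drew 96.6 ± 0.628% in liver and 0.0481 ± 0.105% in kidney from a 25-exon transcript, and KLHL3, a ligase adaptor of salt handling, drew 91.4 ± 5.63% in liver and 3.04 ± 5.68% in kidney from a 15-exon long-read transcript. CRYBG1 had a shift of 96.2 points between its 2 transcripts. CYP2E1 had the largest shift. Its 10-exon transcript (chromosome 14, 141690426 to 141703074) gave 92.3 ± 1.78% in liver and 0.30 ± 0.85% in kidney. A 12-exon transcript that runs on to 141736817, across SYCE1, gave 0.895 ± 0.612% in liver and 99.4 ± 1.19% in kidney. The kidney gene level was 8.64 TPM on average, and the full-length reads of CYP2E1 were 597 in BS liver and 730 in DSE liver, against 0 in BS kidney and 0 in DSE kidney.

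**Figure D4:**
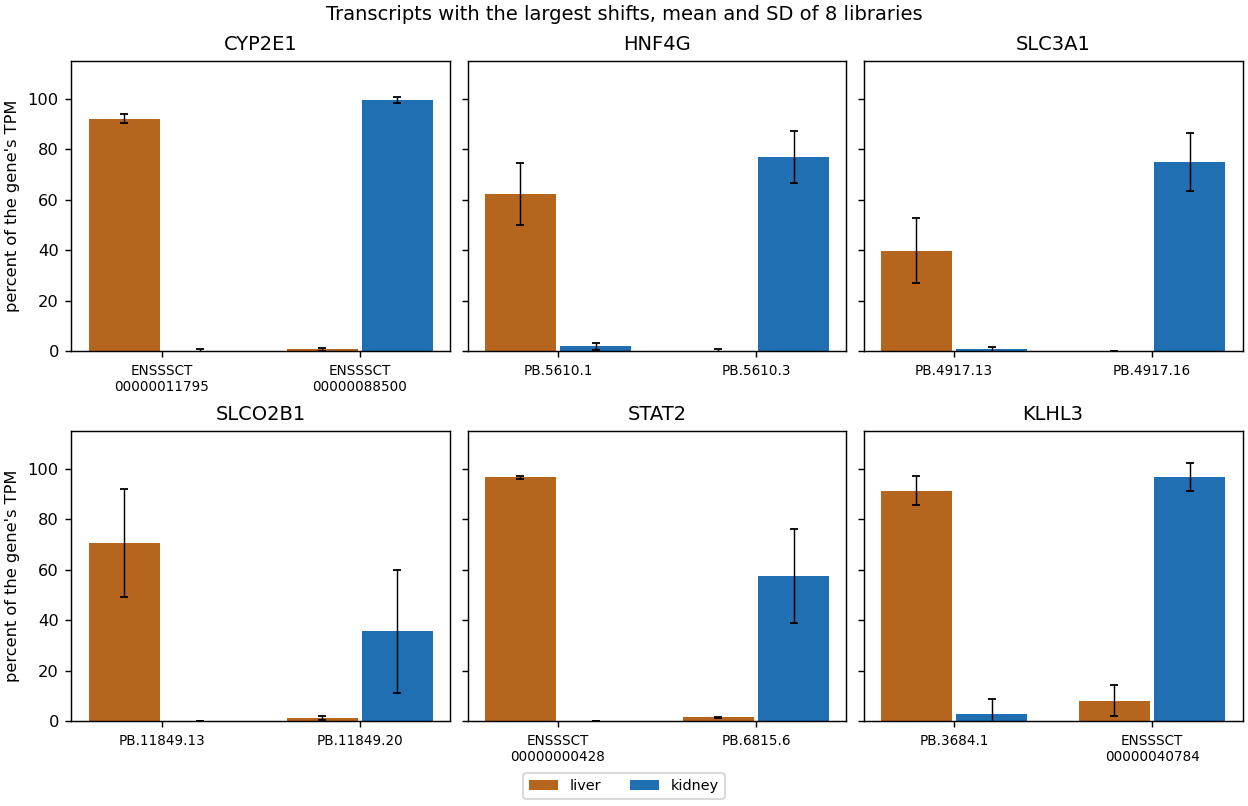
Share of a gene's TPM that came from the transcript with the largest shift toward liver (left in each panel) and toward kidney (right), as mean and SD of 8 liver (orange) and 8 kidney (blue) libraries. In CYP2E1, HNF4G, STAT2 and KLHL3 the transcript with over 60% of the gene in liver gave under 5% in kidney.

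The liver-kidney difference itself was compared between BS and DSE animals. In 5 of 14084 genes the difference differed at an adjusted p below 0.05 (0.0355%), 1295 having an unadjusted p below 0.05, and 2 of the 5 have a symbol. SLC51B stood at 25.9, 10.7, 17.5 and 15.7 TPM in the BS livers and at 2.74, 1.29, 0.819 and 3.48 TPM in the DSE livers, in the order of the animal numbers. Its kidneys stood at 176, 117, 192 and 146 TPM in BS and at 174, 185, 184 and 191 TPM in DSE. The livers did not overlap and the kidneys did. Its difference was -3.15 in BS and -5.99 in DSE (adjusted p = 0.027, limma on the 8 per-animal differences). APOB, the structural protein of very-low-density lipoprotein (chromosome 3, 117250096 to 117316200, plus strand), stood at 0.426, 0.0962, 0.0134 and 0.589 TPM in the BS kidneys and at 6.09, 18.3, 9.0 and 6.67 TPM in the DSE kidneys, without overlap. In liver it stood at 1405, 1137, 1008 and 1199 TPM in BS and at 1234, 1163, 1193 and 1635 TPM in DSE, with overlap. Its difference was 9.87 in BS and 7.0 in DSE (adjusted p = 0.042). The DSE1 kidney, whose sum of hepatocyte markers was the highest and mostly TTR, had the lowest APOB level of the 4 DSE kidneys. APOB is itself among those markers, and the cause of its kidney levels was not tested.

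Both results rest on few animals. Neither passed without BS1, BS2, DSE1, DSE3 or DSE4, SLC51B also failed without DSE2 and APOB also failed without BS4, although the size of the differences stayed between 2.62 and 3.12. APOA5, a plasma triglyceride regulator, had livers at 632, 824, 444 and 755 TPM in BS and at 204, 181, 179.6 and 178 TPM in DSE, without overlap, and an adjusted p of 0.055 for the difference of differences; it passed without BS3. LRCH2 had an adjusted p of 0.057.

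Full-length reads from separate libraries of the same tissues gave a second readout of levels, with 1 BS and 1 DSE library for each organ. They held 282770 reads in BS liver and 216155 in DSE liver, against 456783 in BS kidney and 168139 in DSE kidney. By edgeR's quasi-likelihood test over all 10 long-read libraries, 622 of 4110 genes were higher in liver (15.1%) and 495 in kidney (12.0%). Without the pig-group term the counts were 372 in liver and 300 in kidney, and the liver count was 380 without the BS liver library and 411 without the BS kidney library. Of the 238 listed genes that were higher in liver under both scalings, 112 were in that test, and 109 were called in liver. Of the 222 higher in kidney under both, 97 were in it and 88 were called in kidney, and none of these genes was called in opposite organs. Genes enter that test by their read counts, which a gene high in 1 organ can reach through that organ alone. This match was therefore partly set in advance. Over all genes called with TPM and present in the test, 1708 of 1948 had the same sign (87.7%). Of those higher in liver with TPM, 314 of 345 were called in liver by full-length reads. Of those higher in kidney with TPM, 486 of 1603 were called in kidney by full-length reads and 2 in liver.

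Single genes showed the division as read counts. ALB had 31615 in BS liver and 40386 in DSE liver, against 0 in BS kidney and 1 in DSE kidney. UMOD had 0 in BS liver and 0 in DSE liver, against 2925 in BS kidney and 2275 in DSE kidney. CPS1 had 1554 in BS liver and 983 in DSE liver, against 0 in BS kidney and 0 in DSE kidney, and ASS1 had 479 in BS liver and 552 in DSE liver, against 1023 in BS kidney and 677 in DSE kidney. PCK1 had 165 in BS liver and 81 in DSE liver, against 2651 in BS kidney and 1132 in DSE kidney. The first 3 were nearly or fully absent from the other organ, ASS1 was well covered in both, and PCK1 was covered in both with more reads in kidney. GLS2 had 46 in BS liver and 19 in DSE liver, against 5 in BS kidney and 3 in DSE kidney. APOB, the gene with a difference between pig groups, had 1620 in BS liver and 717 in DSE liver, against 0 in BS kidney and 3 in DSE kidney, so its 3 kidney reads came from the DSE library.

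**Figure D5:**
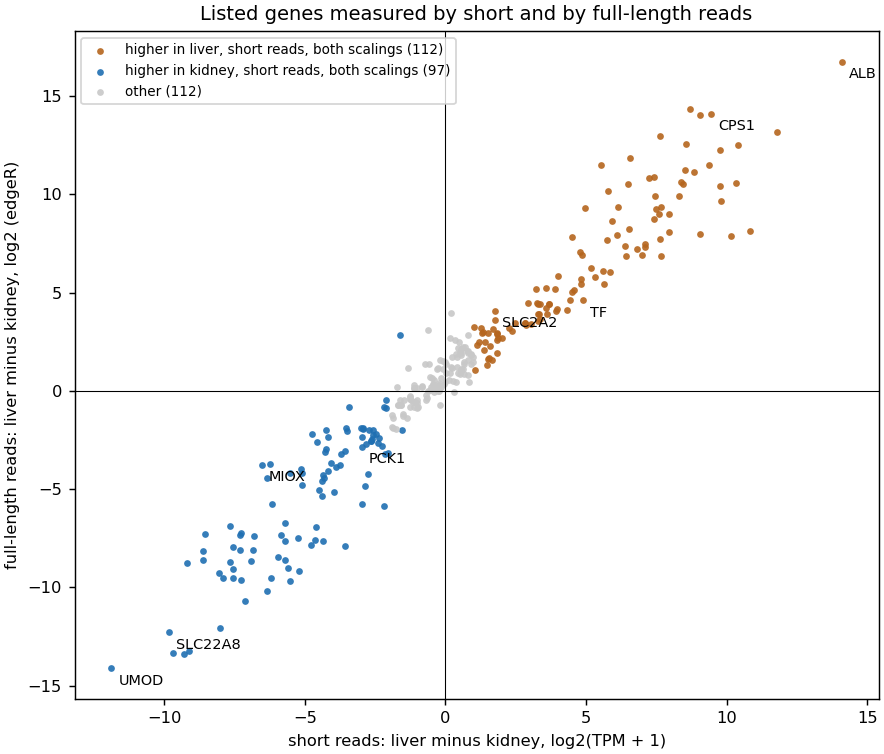
Liver minus kidney difference of 321 listed genes by short reads (horizontal, log2(TPM + 1)) and by full-length reads (vertical, log2 from edgeR, 2 libraries an organ). Genes higher in liver (orange, 112) and in kidney (blue, 97) by short reads lie in the matching corners, apart from 1 blue gene with a single full-length read that was not called.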

How the data were processed

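Per the labels, total RNA of 5 pig tissues was purified by Trizol followed by acid phenol, and the Illumina libraries were depleted of ribosomal RNA. The authors deposited gene and transcript levels as TPM. Per the submitters' processing notes the tools included STAR 2.7.10a and Salmon 1.10.1 and the build was susScr11, and which step made which table is not stated. Depth of the short-read libraries is unknown, so the precision of low values is too. Full-length PacBio reads were deposited as counts per assembled transcript, and other processing is not given in the sources used here. Another 20 gene, 20 transcript and 5 full-length columns bore a code found in no label and stayed unused, and samples labelled DT were not analysed here. Whether counting used strand is not stated, so reads of overlapping genes cannot be told apart.

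Differences on log2(TPM + 1) were estimated by limma 3.58.1 (R 4.3.3), allowing a mean-variance trend, with the animal as a block, since organs were paired by animal. The 5-tissue comparison used all 40 short-read libraries. Pig groups were compared on each animal's liver minus kidney value. Transcript shares were tested as log2 ratios with a pseudocount of 0.5 TPM among transcripts with at least 5% of their gene. Full-length counts were summed per gene, which kept 87.7% of reads, and tested with edgeR 4.0.16 (TMM scaling, pig group as a term); DESeq2 1.42.0 was an alternative. The gene-level, pig-group, transcript and full-length tests were tested on simulated data, and the 5-tissue fit was not. Liver and kidney of an animal correlated at -0.05 to 0.35 in their deviations from the mean of their organ and pig group. For 6 of 8 animals this was higher than the liver's correlation with any other kidney of the same pig group. The members and gene lists were chosen with earlier results of these data known. Genes were named by a rule: the 8 largest differences each way, the 8 most abundant close genes and genes high in both organs, up to 4 called each way and 3 close per list, pairs of related genes, and the largest transcript and pig-group differences; exceptions are marked, and some genes the rule names are not reported here. Alternatives were other pseudocounts, filters, scalings and designs, each pig group alone, and leaving out each animal. Libraries of 1 organ come from separate animal codes, and nothing else is said of how the animals were sampled.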

Additional observations from a re-analysis of the deposited data

Results flagged for a closer look

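In 384 groups of 8 libraries (each reported named gene and marker sum within an organ with a mean of at least 1 TPM there, on log2(TPM + 1)), the most extreme library was set against its nearest neighbour and the group's range by Dixon's 95% critical value. Chance alone flags about 1 in 20 groups, and 32 groups were flagged, in 8 libraries, 13 of them in the BS3 kidney.

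In the BS3 kidney the high values were PCK2 at 827 TPM, PKLR at 20.5, SLC37A4 at 388, PRODH2 at 471, CRYL1 at 1577, MIOX at 1905, FGFR4 at 62.4, SLC5A2 at 525, SLC47A1 at 145 and SLC39A5 at 125 TPM. Its low values were CYP4A24 at 14.9 TPM, CRYBG1 at 4.54 TPM and MT1A, listed at 0. The BS1 kidney was low for CDH2 at 8.99, FMO1 at 259.5, SLC13A5 at 1.26 and SLC19A3 at 7.62 TPM, and the BS2 kidney was high for SLC6A12 at 57.5 TPM.

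Among the livers, BS1 was low for GLYAT at 628 and TDO2 at 549 TPM and high for OXCT1 at 5.36, SPP1 at 54.3 and the summed bile duct markers at 64.3 TPM. BS2 was low for AKR1D1 at 301 TPM. BS3 was low for ARG1 at 299 TPM and high for GAMT at 1247 TPM. BS4 was low for CYP2E1 at 743, HJV at 36.1 and RGN at 271 TPM and high for the summed heart muscle markers at 363 TPM. DSE3 was low for PCK1 at 279.6 TPM and high for SLC20A1 at 42.4 TPM.

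By the test of the difference itself, the signed liver minus kidney difference was higher in BS than in DSE animals by 2.85 for SLC51B and by 2.87 for APOB. For SLC51B, higher in kidney, it was -3.15 in BS and -5.99 in DSE, smaller in size in BS. For APOB, higher in liver, it was 9.87 in BS and 7.0 in DSE, larger in BS.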

How the results depend on the processing

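Median-ratio scaling gave 2140 genes higher in liver, 2210 in kidney and 3638 close, and removal of the mitochondrial genome gave 1000, 7442 and 1741. A pseudocount of 0.1 TPM gave 1264, 6939 and 2051. The fit with no replicate block gave 1077, 5655 and 1832. Leaving out each animal in turn gave 1049 to 1098 genes in liver, 5510 to 6023 in kidney and 2029 to 2161 close, and 263 to 284 genes high in both organs. BS and DSE animals alone gave 1119 and 1067 in liver and 5577 and 5847 in kidney. The 5 genes that differed between pig groups became 0 with a pseudocount of 0.1 TPM, 0 with no filter on low values, 2 with median-ratio scaling and 0 to 19 without each animal. Genes with a transcript shift became 576 at a gene mean of at least 1 TPM. By full-length reads, DESeq2 gave 420 genes in liver and 303 in kidney, the fit without the pig-group term 372 and 300, and leaving out each library 380 to 491 and 365 to 397. FMO1 reversed to 0.63 with median-ratio scaling and 0.041 in DSE animals alone. CRYBG1 reversed to 0.61 with median-ratio scaling, and KLHL3 to 0.74 with it, 0.0026 in DSE animals alone and -0.23 to 0.019 without each animal, above 0 without BS4. Under these alternatives, 3575 values of named genes and transcripts kept their result, 21 passed the threshold and 29 lost it. Another 90 values, all of genes close with TPM, no longer met the closeness rule. For close genes only closeness was compared and a change of sign was not counted, so the reversals above are those of other named genes. Causes were not tested. The short-read depth is unknown, so differences among genes near 0 TPM may lie within counting error.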

Other observations

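LDHB, a lactate dehydrogenase subunit, was near 0 in all 5 tissues of the animal BS1. Its level there was 0.211 TPM in liver and 0.288 TPM in kidney, against 17.4 to 64.5 TPM in the livers and 40.7 to 171 TPM in the kidneys of the other animals. In the same animal it was at 0.594 TPM in heart, 0.0395 TPM in spleen and listed at 0 in lung.

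In the BS2 kidney 7 genes of at least 10 TPM were at least 5-fold above every other kidney: AKR1B1, CA8, RANBP3L, SLC14A1, SLC6A12 and 2 without a symbol. The labels do not say which region of the kidney was sampled. AKR1B1, the aldose reductase that makes sorbitol, stood at 456 TPM in it, against 40.2 TPM in the next kidney. SLC14A1, a urea carrier, stood at 37.8 TPM against 0.607 TPM. RANBP3L stood at 68.9 TPM against 6.2 TPM, and the betaine carrier SLC6A12 at 57.5 TPM against 2.51 TPM.

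In the BS4 liver 19 genes of at least 10 TPM were at least 5-fold above every other liver, among them the striated muscle genes ACTA1, CKM, MYH7, MYL2, TNNC1, TNNI3 and TNNT2. The Y-linked ZFY stood at 7.43 TPM in the BS4 liver and 10.4 TPM in the BS4 kidney, and at no more than 0.0137 TPM in liver and kidney of the other animals.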
